A study of Mus musculus with 5 samples.

Results

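The 39 genes described here act in mitosis and at the kinetochore, and they were followed across RNA-seq libraries of cultured mouse BMSCs (bone mesenchymal stem cells in the labels), plate-bound marrow stroma with the capacity to become osteoblasts, adipocytes or chondrocytes. They were chosen by name, from cyclins and mitotic kinases to kinetochore subunits and cytokinesis factors, and by no rule on their values. Earlier results of these data were known when they were chosen. All 39 were found once each among the 55401 genes of the deposited table, and all 39 averaged 1 FPKM or more across the 5 libraries, the filter that 12113 genes passed in total. That mean takes in the control, so a gene can pass through a high control level alone. Cenpf passed at a mean of 1.0001 FPKM, with less than 1 FPKM at every pressure. Wild-type cells were cultured at 0 mmHg (the control) or under continuous negative pressure of -80, -120, -160 or -200 mmHg held for 48 h, with 72 h of culture per the labels and 1 library per condition. FPKM divides the fragments of a gene by its exon length and by the depth of the library. That length takes in all annotated exons of a gene, so levels can be compared between genes only roughly. Neither the number of animals behind the cells nor the passage is given in the sources used here.

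Cells that enter mitosis build up cyclins A and B, which activate the kinase CDK1. Polo-like and Aurora kinases then assemble the spindle, the kinetochore ties each chromosome to its microtubules, and the spindle checkpoint holds back the anaphase-promoting complex (APC/C) until all chromosomes are attached. Most genes of this programme are transcribed in the G2 phase and in mitosis and are shut off in resting cells, so in a bulk culture their mRNA is widely read as a measure of cycling. The DREAM complex represses them in quiescence, and the B-Myb and FoxM1 complexes activate them. These complexes act at a promoter element named the cell cycle genes homology region (CHR), often together with CCAAT boxes bound by the factor NF-Y.

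The libraries held 16600622 to 18398911 reads, recovered from the FPKM steps, and the 39 genes had at least 89 reads each in every library. With 1 library per condition there is no replicate spread, so no difference between conditions could be tested, and intervals cover the counting of reads only. Differences are given in log2(FPKM + 1), a scale that shrinks those of low genes, and the size rule asks for a difference of at least 2-fold on it. The control library stands apart from the pressure libraries: 4 Y-linked genes together had 0 reads in each pressure library and 2493 reads in the control. An effect of pressure and a different origin of the control cells therefore cannot be told apart in any comparison with that library. The comparison among pressures further below does not use it. Of 14 marrow stromal markers 12 were measured, with 1, Ly6a, at least 2-fold lower and 0 higher at all 4 pressures. Ly6a stood at 622 to 827.8 FPKM under pressure and 1740.5 FPKM in the control. The summed level of all 14 was 2479 to 2705 FPKM under pressure and 3896 FPKM in the control. Thy1, a surface antigen of stromal cells, was low throughout. It had 1.001 to 1.83 FPKM under pressure (51 to 91 reads) and 0.0181 FPKM in the control (1 read). Of 13 blood cell markers 3 were measured, and Mpo, Itgam and Cd3e were at 0 in all 5 libraries.

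The promoters of these genes share sequence elements that the choice of genes did not use. RefSeq promoters (build GRCm38.p6, 250 bases before to 50 after the transcription start) were at hand for 32 of the 39 genes, and 24 of these 32 (75%) held the CHR core TTTGAA on either strand, against 20.2% of the 27025 genes in the promoter table and 14.0% of the 8781 of them that had a mean of at least 1 FPKM. Within 50 bases of the start on either side the core was present in 22 of the 32 genes (68.8%), against 5.72% of all genes in the table. CCAAT, also searched on both strands, was present in 24 of the 32 (75%) and in 41.1% of all genes, and 21 of the 32 (65.6%) held both elements, against 8.97% of all. In 1 promoter, that of Cdca8, a core and a CCAAT shared a base. The genes outside the promoter table were Aurkb, Ccna2, Cdc25c, Incenp, Kif20a, Spc24 and Tpx2.

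Promoter stretches of 8 genes are shown as examples, from 100 bases before the start to 30 after it, 5′ to 3′ on the gene's strand, with TTTGAA and CCAAT of either strand in capitals (TTCAAA and ATTGG where they lie on the other strand). The first 5 hold both elements, Ccnb1 and Pttg1 are 2 of the genes that differed most from the control and hold no TTTGAA, and Ect2 holds it and differed least.
Ccnb2 (chr9:70421525-70421654, minus strand): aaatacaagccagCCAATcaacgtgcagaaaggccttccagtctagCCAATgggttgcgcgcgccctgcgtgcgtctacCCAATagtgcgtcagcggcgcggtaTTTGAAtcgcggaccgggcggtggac
Cdk1 (chr10:69352883-69353012, minus strand): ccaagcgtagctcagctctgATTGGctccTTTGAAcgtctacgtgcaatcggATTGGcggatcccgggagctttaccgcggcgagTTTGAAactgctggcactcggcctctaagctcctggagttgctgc
Cdc20 (chr4:118437314-118437443, minus strand): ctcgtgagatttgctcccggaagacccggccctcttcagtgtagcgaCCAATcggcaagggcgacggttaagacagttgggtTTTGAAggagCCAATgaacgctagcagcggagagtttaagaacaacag
Ube2c (chr2:164769829-164769958, plus strand): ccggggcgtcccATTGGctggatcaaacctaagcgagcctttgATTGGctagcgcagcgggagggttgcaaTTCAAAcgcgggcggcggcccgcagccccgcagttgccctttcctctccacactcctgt
Hmmr (chr11:40733408-40733537, minus strand): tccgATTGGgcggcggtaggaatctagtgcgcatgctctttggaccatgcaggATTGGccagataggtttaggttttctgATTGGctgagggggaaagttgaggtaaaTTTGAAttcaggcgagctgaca
Ccnb1 (chr13:100786457-100786586, minus strand): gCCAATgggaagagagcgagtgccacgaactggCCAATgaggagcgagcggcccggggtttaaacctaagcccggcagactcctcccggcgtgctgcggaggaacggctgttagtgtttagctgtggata
Pttg1 (chr11:43425952-43426081, minus strand): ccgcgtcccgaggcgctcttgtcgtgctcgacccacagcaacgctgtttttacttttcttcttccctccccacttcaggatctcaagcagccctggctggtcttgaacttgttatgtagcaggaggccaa
Ect2 (chr3:27153825-27153954, minus strand): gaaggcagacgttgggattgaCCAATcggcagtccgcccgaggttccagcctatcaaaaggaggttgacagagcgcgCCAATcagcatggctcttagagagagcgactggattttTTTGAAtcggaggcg
In Ccnb2 a row of 3 CCAAT boxes lies before a core that begins at base 5 of the transcript. Cdk1 has a core that begins 15 bases before the start, Cdc20 one at 18 bases before it, and Ube2c one on the other strand at 29 bases before it. Ect2 has 2 promoters in the table, and the one with a core inside the stretch is shown. Ccnb1 holds TTTAAA, counted as a further core in an alternative search, from 42 to 37 bases before the start. The Pttg1 stretch lies inside the gene as annotated for the read counts, whose 5′ end is at base 43426251, so sequence before that end is not shown. A match is a run of letters, not evidence of binding, and no match says only that these letters are not in this window.

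**Figure D1:**
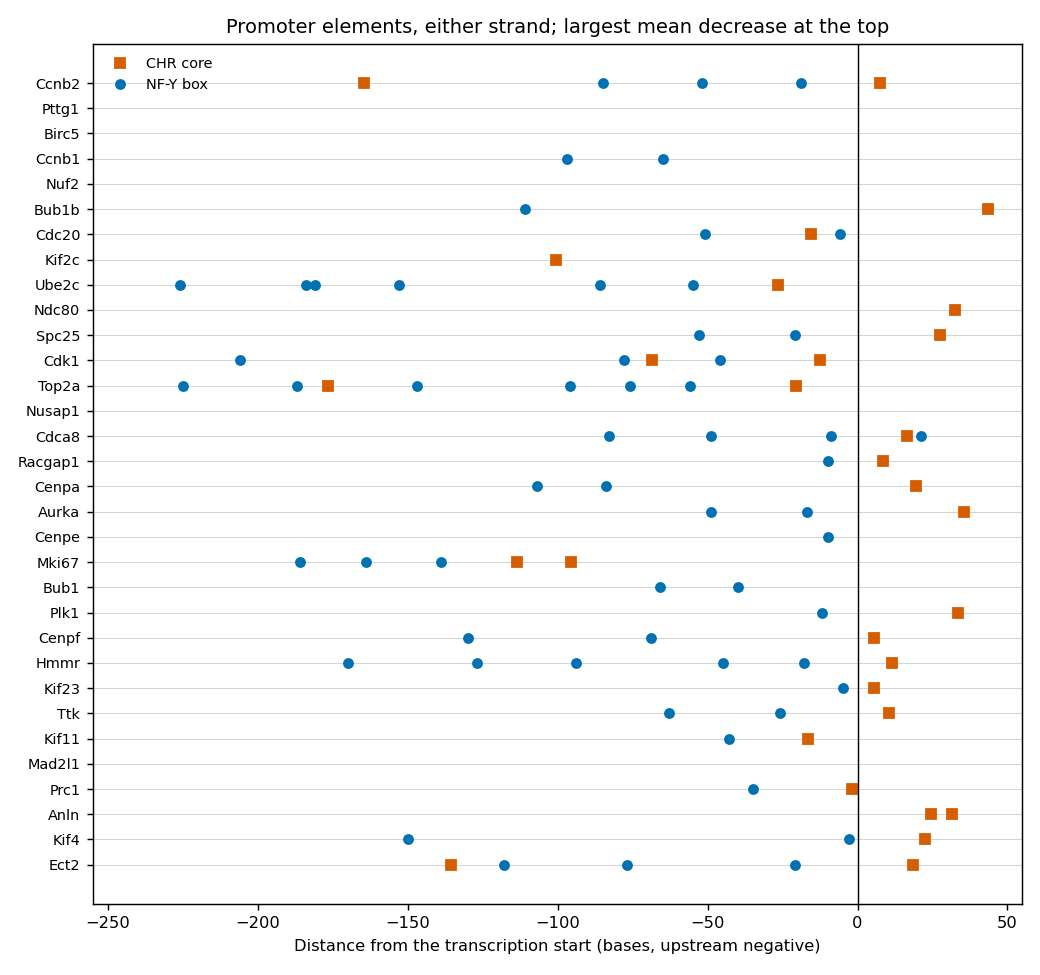
CHR cores (squares) and NF-Y boxes (circles) on either strand in the promoters of 32 genes, by distance from the transcription start in bases, with the genes ordered by their mean log2 difference from the control, largest decrease at the top. In 22 of the 32 genes a CHR core lies within 50 bases of the start.

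All 39 genes were lower than in the control at all 4 pressures, with the exception of Ect2 at -160 mmHg when libraries were scaled by their upper quartile, and 33.3% of all 12113 genes were lower at all 4. By the size rule 31 of the 39 were at least 2-fold lower under -80 mmHg, 32 under -120 mmHg, 23 under -160 mmHg and 30 under -200 mmHg. Of all genes 6.89%, 6.45%, 6.03% and 6.38% were at least 2-fold lower at those pressures. At all 4 pressures 23 of the 39 passed the rule, against 4.46% of all genes. With 5 FPKM added in place of 1, 9 of the 39 did, with no share of all genes computed. At least 2-fold higher at all 4 were 0 of the 39, against 6.49% of all genes. The median log2 difference of the 39 genes was -1.43, -1.56, -1.10 and -1.52 at the 4 pressures in that order. The median of all genes was itself 0.16, 0.14, 0.15 and 0.14 above the control, so relative to it the medians were -1.58, -1.70, -1.25 and -1.66. The 4 comparisons share the 1 control library. In these bulk libraries fewer cycling cells and less mitotic mRNA per cell cannot be told apart.

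Summed over the 39 genes, the level was 676 FPKM in the control library, then 200.9, 196, 282 and 199 FPKM at -80, -120, -160 and -200 mmHg. Their reads made up 0.0906% to 0.131% of the library under pressure and 0.290% in the control. Per library total the ratio of their summed reads to the control was 0.325 for -80 mmHg (95% Clopper-Pearson interval 0.320 to 0.331) and 0.454 for -160 mmHg (0.447 to 0.461). For single genes this interval lay below 1 in 39, 39, 37 and 39 of the 39 at the 4 pressures, against 31.3%, 30.2%, 30.2% and 30.8% of 11783 genes with recovered reads. The 3 pressures -80, -120 and -200 mmHg thus lay close together, with -160 mmHg between them and the control.

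**Figure D2:**
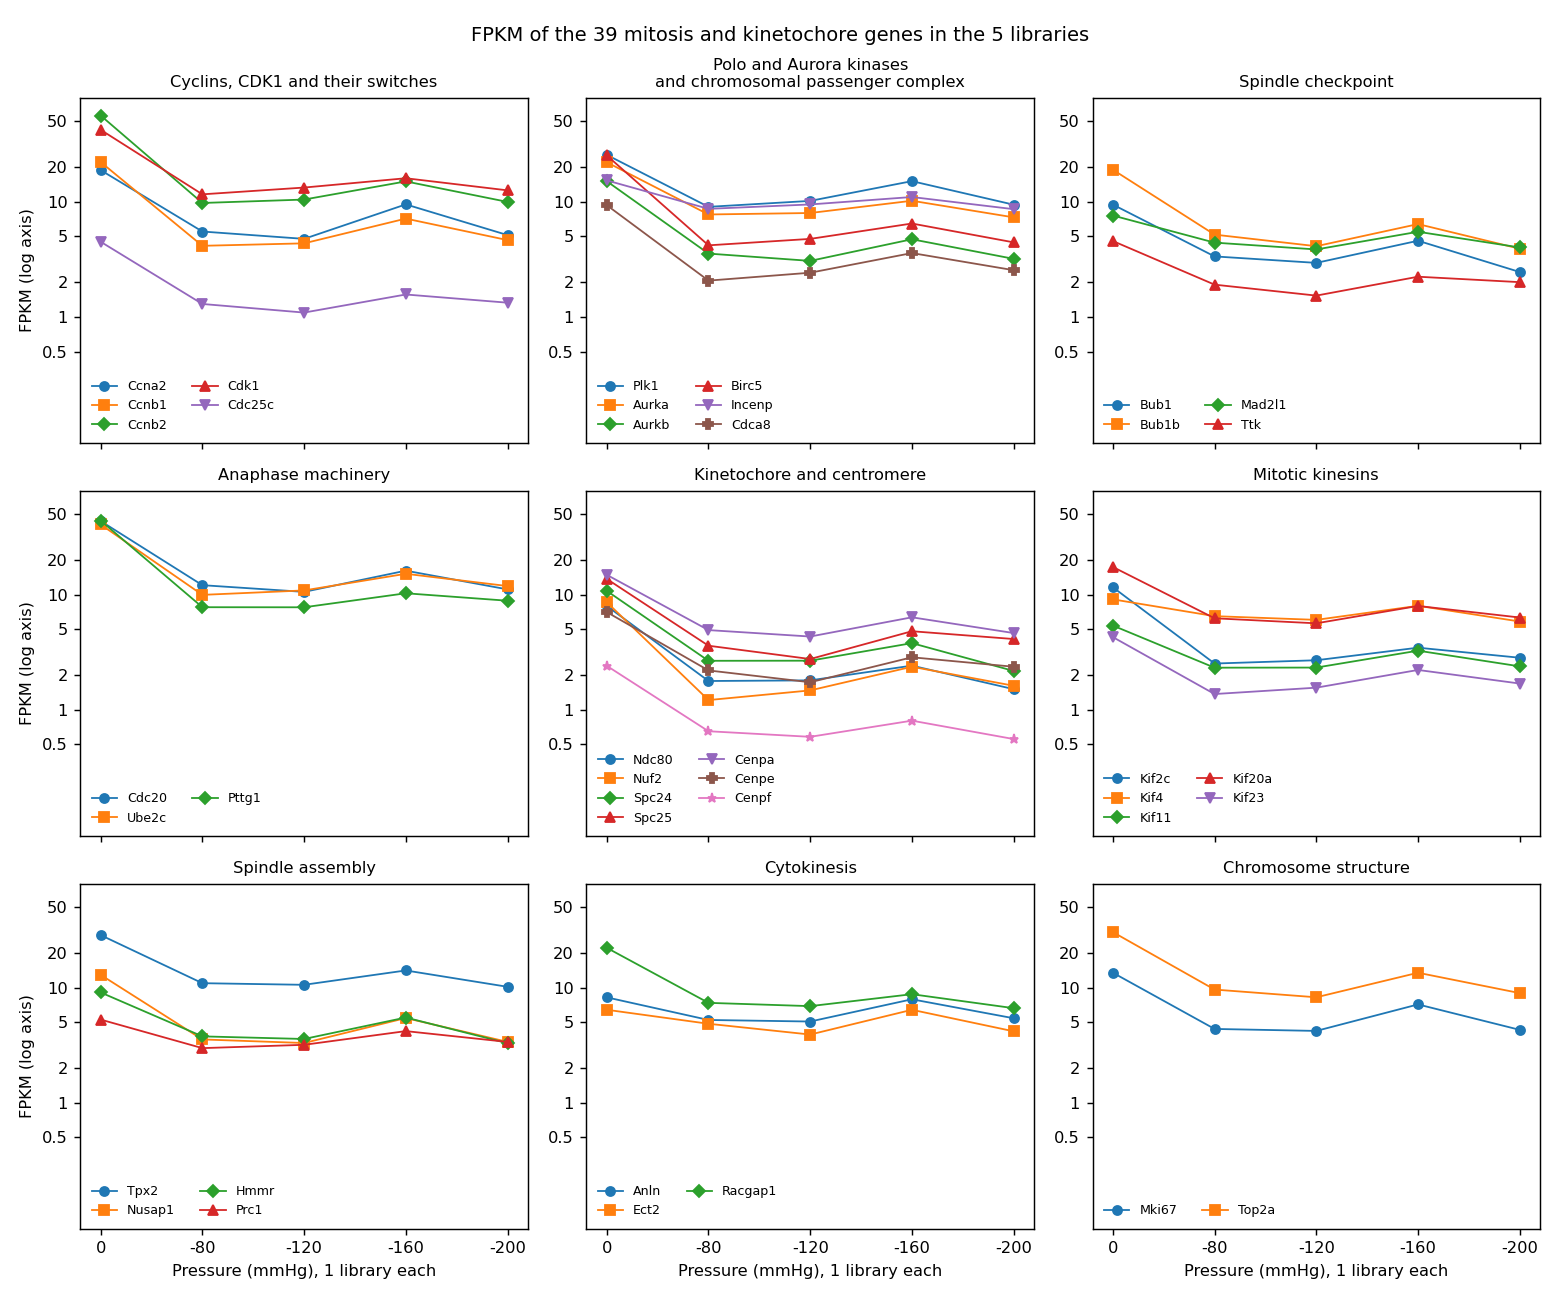
FPKM on a log axis of the 39 genes at 0, -80, -120, -160 and -200 mmHg, 1 library each, in panels by role, with 1 line per gene. Every line is highest at 0 mmHg and higher at -160 mmHg than at the other 3 pressures, and those of Ect2 and Anln in the cytokinesis panel come closest to their level at 0 mmHg.

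Of the cyclin group 4 of 5 genes were at least 2-fold lower at all 4 pressures. Ccnb2, which encodes cyclin B2, had 56.3 FPKM at 0 mmHg and 9.77, 10.5, 15.1 and 9.98 FPKM at -80, -120, -160 and -200 mmHg. It had the highest mean level and the largest mean log2 difference of all 39 genes (-2.24). Ccnb1, the gene of cyclin B1, had 22.2 FPKM at 0 mmHg and 4.15, 4.36, 7.15 and 4.65 FPKM at the 4 pressures in the same order. Cdk1, the kinase that these cyclins activate, had 42.3 FPKM at 0 mmHg and 11.6, 13.3, 16.0 and 12.6 FPKM under pressure. In each of these 3 genes the control was at least 2-fold above every pressure library. Ccna2, the gene of cyclin A2, which acts in S phase and at mitotic entry, passed the size rule at 3 pressures and stood 0.92 below the control on the log2 scale at -160 mmHg (18.9 FPKM at 0 mmHg, then 5.52, 4.77, 9.50 and 5.14 FPKM). Cdc25c, a phosphatase that activates CDK1, was the least abundant of this group, with 4.50 FPKM at 0 mmHg and 1.295, 1.09, 1.57 and 1.33 FPKM under pressure, at least 2-fold lower at all 4.

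The Polo and Aurora kinases and the chromosomal passenger complex did not move by equal amounts. This complex joins the kinase Aurora B to the scaffold INCENP and to survivin and borealin, and it corrects faulty attachments of chromosomes. Birc5 (survivin) had 25.3 FPKM at 0 mmHg and 4.19, 4.76, 6.48 and 4.44 FPKM at the 4 pressures, while Incenp had 15.4 FPKM at 0 mmHg and 8.69, 9.49, 11.01 and 8.64 FPKM. Birc5 thus passed the size rule at all 4 pressures, and Incenp passed it at none. The ratio of Incenp to Aurkb (Aurora B) in FPKM was 2.33 to 3.09 under pressure and 1.02 in the control. Cdca8 (borealin) stood at 2.07 to 3.59 FPKM under pressure and 9.35 FPKM in the control, and Aurkb at 3.07 to 4.73 FPKM and 15.1 FPKM, and both passed the rule at all 4 pressures. Plk1, the Polo-like kinase of mitotic entry, had 25.6 FPKM at 0 mmHg and 9.05, 10.2, 15.1 and 9.44 FPKM under pressure, and passed the rule at 3 pressures. Aurka, the Aurora kinase of the spindle poles, stood at 7.33 to 10.2 FPKM under pressure and 22.1 FPKM in the control, 2-fold lower or more at all 4.

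The 3 anaphase genes all passed the size rule throughout. Pttg1, which encodes securin, the inhibitor of separase, had 44.02 FPKM at 0 mmHg and 7.78, 7.77, 10.3 and 8.86 FPKM at the 4 pressures. Cdc20, the activator of the APC/C, had 43.7 FPKM at 0 mmHg and 12.1, 10.6, 16.2 and 11.1 FPKM, and Ube2c, the ubiquitin-conjugating enzyme of the APC/C, 40.8 FPKM and then 9.96, 10.9, 15.2 and 11.9 FPKM. In each of the 3 the control stood above all 4 pressure libraries, and -160 mmHg was the highest of these. Reads per library total of Pttg1 in the control were 5.66 times those at -80 mmHg (4.96 to 6.47).

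The spindle checkpoint genes differed more among themselves. Bub1b, which encodes the checkpoint protein BubR1, met the size rule at all 4 pressures, with 3.91 to 6.41 FPKM under pressure and 19.02 FPKM in the control. Mad2l1, the gene of the checkpoint protein Mad2 that inhibits CDC20, stood at 3.86 to 5.49 FPKM under pressure and 7.61 FPKM in the control and passed it at none. The ratio of Mad2l1 to Bub1b in FPKM was 0.852 to 1.03 under pressure and 0.400 in the control. The checkpoint kinase gene Bub1 passed the rule at 3 pressures (2.45 to 4.59 FPKM under pressure, 9.46 FPKM in the control). Ttk, the kinase MPS1, passed it at -120 mmHg alone, with 4.56 FPKM at 0 mmHg and 1.91, 1.53, 2.23 and 2.004 FPKM at the 4 pressures.

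Of the 7 kinetochore and centromere genes 6 were at least 2-fold lower at all 4 pressures. Ndc80, Nuf2, Spc24 and Spc25 encode the 4 subunits of the Ndc80 complex, the main microtubule-binding element of the kinetochore, and all 4 passed the rule throughout. Nuf2 had 8.60 FPKM at 0 mmHg and 1.21, 1.47, 2.36 and 1.62 FPKM at the 4 pressures, and its reads per library total in the control were 7.09 times those at -80 mmHg (5.89 to 8.59). Ndc80 stood at 1.51 to 2.42 FPKM under pressure and 7.99 FPKM in the control, Spc24 at 2.17 to 3.79 FPKM and 10.8 FPKM, and Spc25 at 2.76 to 4.81 FPKM and 13.7 FPKM. Spc25 had the highest FPKM of the 4 subunits in every library, at -120 mmHg by little (2.76 FPKM, and 2.67 FPKM for Spc24). Cenpa, the histone H3 variant that marks the centromere, stood at 4.33 to 6.36 FPKM under pressure and 14.9 FPKM in the control, and Cenpe, a kinetochore kinesin, at 1.73 to 2.86 FPKM and 7.06 FPKM. Cenpf, a kinetochore protein of G2 and mitosis, was the exception, at -0.92 on the log2 scale at -160 mmHg. It was also the least abundant of the 39 genes (2.41 FPKM at 0 mmHg, then 0.650, 0.582, 0.804 and 0.556 FPKM), where the added 1 FPKM weighs most, and its reads per library total in the control were 3.00 times those at -160 mmHg (2.57 to 3.51).

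The 5 mitotic kinesins ranged from -1.71 (Kif2c) to -0.42 (Kif4) in mean log2 difference over the 4 pressures. Kif2c (MCAK), which removes tubulin at microtubule ends, stood at 2.52 to 3.46 FPKM under pressure and 11.6 FPKM in the control, and it passed the rule at all 4 pressures together with Kif20a, a kinesin of the central spindle (5.64 to 7.98 FPKM and 17.4 FPKM). Kif4, a chromosome-bound kinesin, had 9.11 FPKM at 0 mmHg and 6.51, 6.04, 8.01 and 5.85 FPKM at the 4 pressures, and passed it at none. The ratio of Kif4 to Kif2c in FPKM was 2.07 to 2.58 under pressure and 0.785 in the control. Kif11 (Eg5), which pushes the spindle poles apart, missed the rule at every pressure (-0.94, -0.94, -0.58 and -0.92 on the log2 scale), with 2.32 to 3.26 FPKM under pressure and 5.39 FPKM in the control. Kif23, the kinesin of centralspindlin, met it at -80 and -120 mmHg (1.37 to 2.22 FPKM under pressure, 4.28 FPKM in the control).

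Spindle assembly and cytokinesis genes included the smallest differences of all. Ect2, which acts at the start of furrow formation, had 6.41 FPKM at 0 mmHg and 4.84, 3.90, 6.41 and 4.16 FPKM at the 4 pressures. Anln (anillin), a scaffold of the contractile ring, had 8.22 FPKM at 0 mmHg and 5.23, 5.06, 7.91 and 5.41 FPKM, and Prc1, which bundles the microtubules of the central spindle, had 5.27 FPKM and then 2.97, 3.18, 4.18 and 3.37 FPKM. None of these 3 genes passed the size rule at any pressure, and for Ect2 and Anln the counting interval of the ratio of the control to -160 mmHg included 1 (0.893 to 1.12 and 0.961 to 1.12). Racgap1, the partner of Kif23 in centralspindlin, was 2-fold lower or more at all 4 (6.62 to 8.75 FPKM under pressure, 22.1 FPKM in the control). Nusap1, a microtubule-bundling protein of the spindle, was too (12.9 FPKM at 0 mmHg, then 3.54, 3.29, 5.43 and 3.37 FPKM). Tpx2, the activator of Aurora A, and Hmmr, a spindle-associated hyaluronan receptor, passed at 3 pressures (10.1 to 14.1 FPKM under pressure against 28.6 FPKM in the control, and 3.28 to 5.49 FPKM against 9.07 FPKM).

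Mki67, which encodes Ki-67, a surface protein of mitotic chromosomes and the usual marker of cycling cells, had 13.5 FPKM at 0 mmHg and 4.37, 4.197, 7.13 and 4.29 FPKM at the 4 pressures. Top2a, the topoisomerase that untangles sister chromatids, had 30.3 FPKM at 0 mmHg and 9.60, 8.23, 13.4 and 8.95 FPKM. Top2a passed the rule at all 4 pressures and Mki67 at all but -160 mmHg. Across the 39 genes 7 passed it at no pressure: Kif11, Mad2l1, Incenp, Prc1, Anln, Kif4 and Ect2. Genes with and without the promoter element overlapped: the mean log2 difference over the 4 pressures had a median of -1.36 in the 24 genes with TTTGAA (range -2.24 to -0.36) and -1.69 in the 8 without it (range -2.23 to -0.67).

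**Figure D3:**
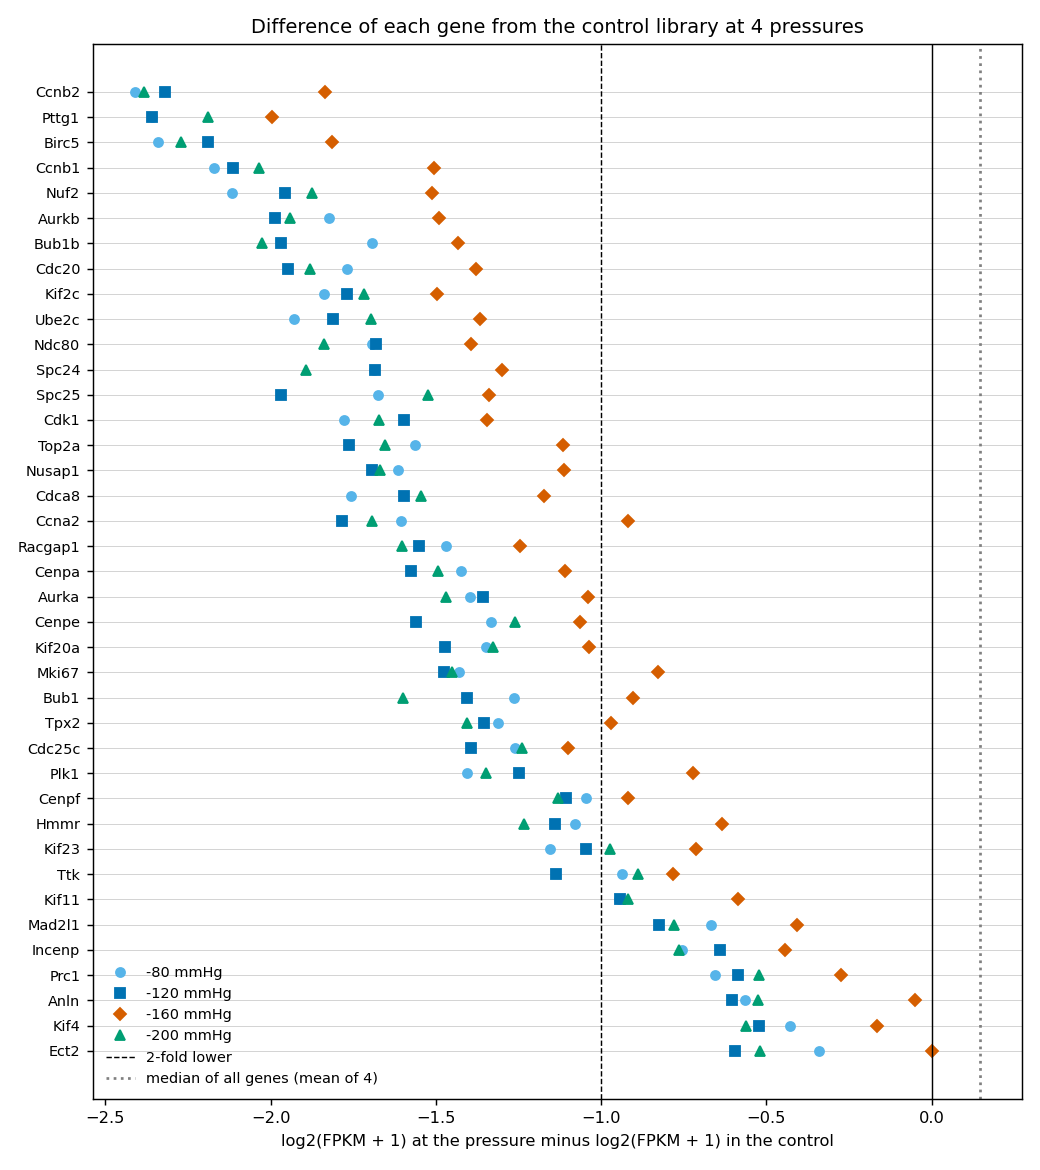
Difference in log2(FPKM + 1) from the control for each of the 39 genes at -80, -120, -160 and -200 mmHg (1 library each), ordered by the mean of the 4, with lines at the 2-fold rule and at the median of all genes. The point at -160 mmHg lies to the right of the other 3 for every gene, and 7 genes lie right of the 2-fold line at every pressure.

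The next comparison set the library at -160 mmHg against the other 3 pressures, and needs no control. All 39 genes were highest at -160 mmHg among the 4 pressures, against 25.4% of all 12113 genes, and 0 of the 39 were highest at any other pressure. The log2 difference of -160 mmHg from the mean of the other 3 had a median of 0.39 over the 39 genes (range 0.18 to 0.78), against 0.01 over all genes. In reads per library total the 39 genes together were 1.42 times as high at -160 mmHg (95% Clopper-Pearson interval 1.40 to 1.44), single genes 1.23 to 1.85 times. The counting interval lay above 1 in 39 of 39 genes, against 18.4% of the 11783 genes. Against single libraries it lay above 1 in 37 genes for -80 mmHg, 39 for -120 mmHg and 35 for -200 mmHg, where 17.7%, 21.5% and 18.3% of all genes did. The step was small for single genes: 4 of the 39 reached 1.5-fold, against 0.933% of all genes. With 0.1 or 5 FPKM added in place of 1, 12 or 0 did, with no share of all genes computed. The step rests on 1 library at -160 mmHg, with no second culture at that pressure analysed here.

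Ccna2 showed the largest step, with 1.85 times the reads per library total of the other 3 pressures (1.67 to 2.04), followed on the log2 scale by Mki67 (0.62), Plk1 (0.61), Ccnb1 (0.60) and Nusap1 (0.55). The smallest steps were in Cenpf (0.18), Cdc25c (0.20) and Ttk (0.21), which are among the least abundant genes here. In reads these 3 were 1.35 (1.14 to 1.59), 1.26 (1.02 to 1.55) and 1.23 times (1.03 to 1.46) as high. In 34 of the 39 genes -160 mmHg exceeded the highest of the other 3 libraries by more than those 3 spanned. The share of all genes that did so was not computed, so this count has no background to be read against. Among these 3 no library was set apart: -80 mmHg was the highest of them in 16 genes, -200 mmHg in 15 and -120 mmHg in 8.

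The step at -160 mmHg covered a median of 16.9% of the gap in FPKM between the mean of the other 3 pressures and the control. Pttg1 had the smallest share (5.99%) and Ect2 (99.9%) and Anln (89.6%) the largest. These 2 genes also had narrow gaps, with means over the other 3 pressures of 4.30 and 5.23 FPKM and control levels of 6.41 and 8.22 FPKM. By role the median step in log2 was 0.58 for the 2 chromosome structure genes, 0.54 for the cyclin group, 0.49 for cytokinesis and 0.34 for the kinesins.

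**Figure D4:**
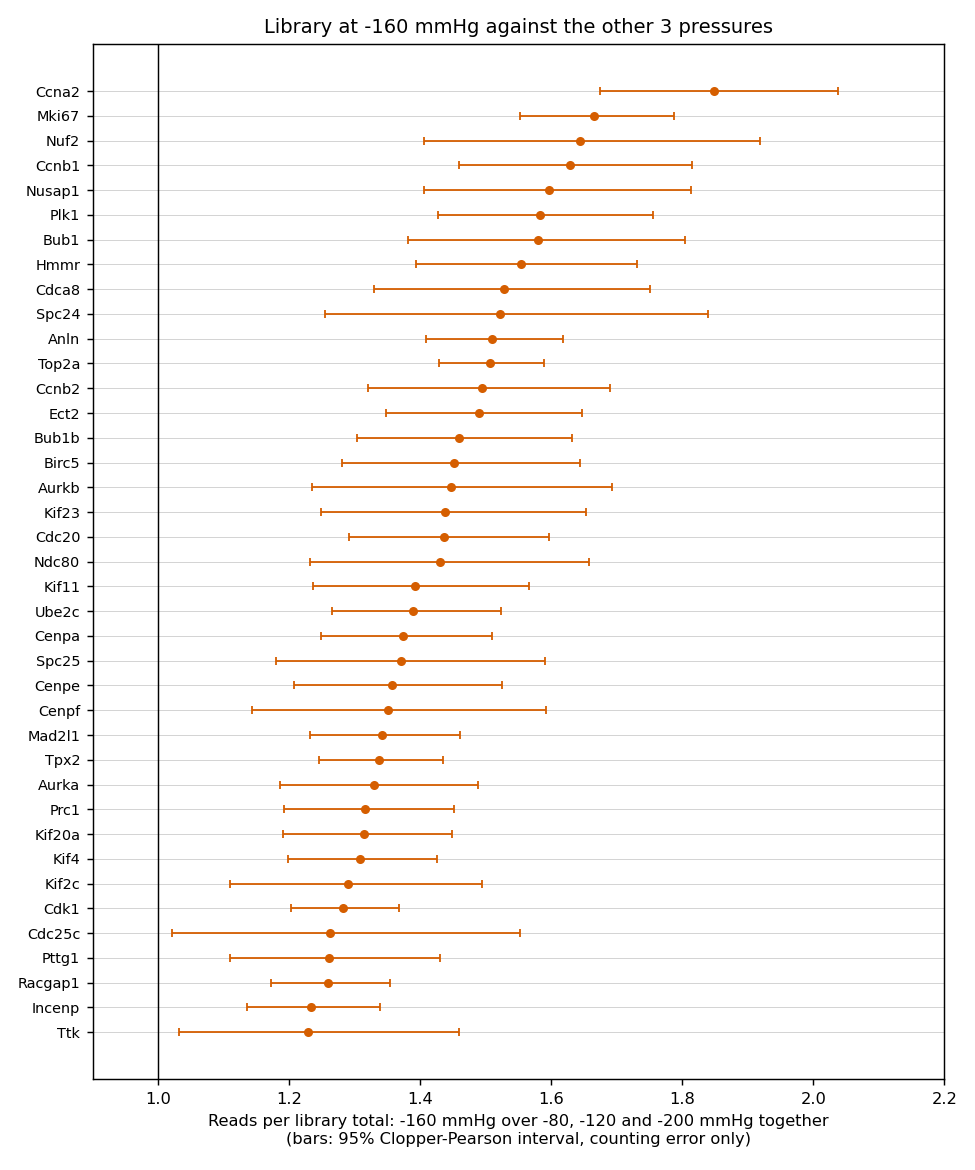
Reads per library total at -160 mmHg over those at -80, -120 and -200 mmHg together for each of the 39 genes, with 95% Clopper-Pearson intervals that cover counting error only. Every interval lies above 1, from Ccna2 at 1.85 to Ttk and Incenp at 1.23.

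**Figure D5:**
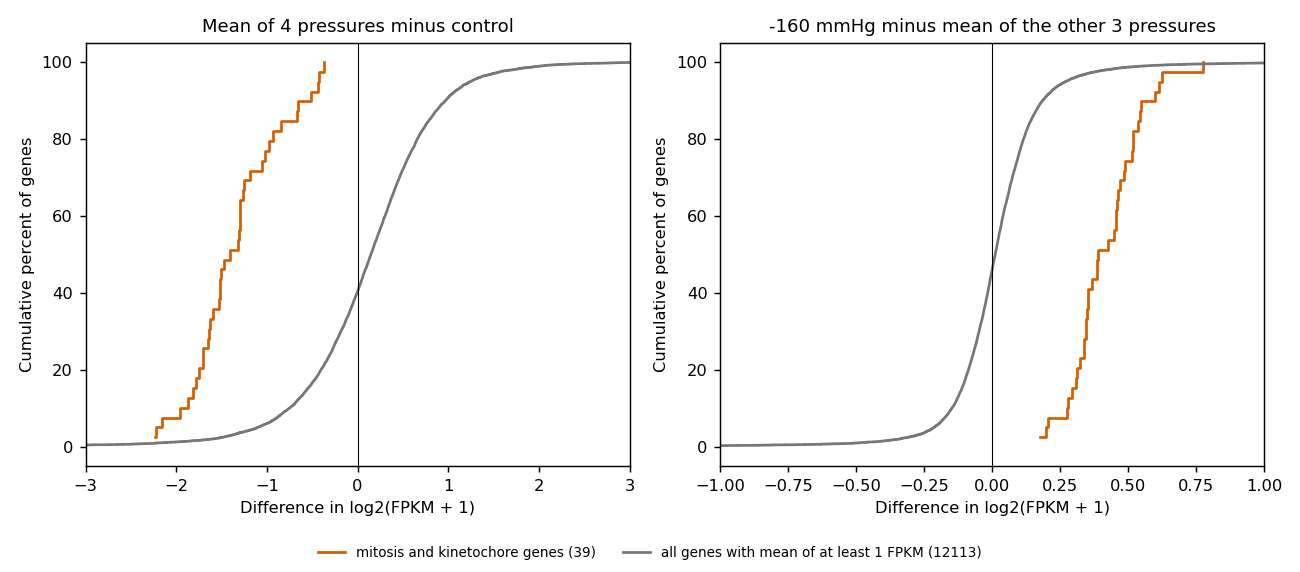
Cumulative percent of the 39 genes and of all 12113 genes by the difference in log2(FPKM + 1), for the mean of the 4 pressures minus the control (left) and for -160 mmHg minus the mean of the other 3 pressures (right). The curve of the 39 genes lies wholly below 0 in the first panel and wholly above 0 in the second, where it runs from 0.18 to 0.78.

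Of the other genes of mitosis, 143 in 10 lists, 128 were measured. Of these, 21 were at least 2-fold lower and 0 higher at all 4 pressures (4.46% and 6.49% of all genes). Another 83 passed the size rule at no pressure, for which no share of all genes was computed. The median log2 difference of the 128 genes was -0.64, -0.62, -0.41 and -0.57 at -80, -120, -160 and -200 mmHg. Kinetochore and centromere genes outside the 39, the longest of the 10 lists, had 10 of 29 measured genes lower at all 4. Some of these passed the filter only through the control, such as Nsl1, named after its values were seen (0.759 to 0.920 FPKM under pressure, 2.86 FPKM in the control). Without the filter 22 of all 143 genes were lower at all 4. Oip5, a centromere licensing factor, stood at 1.46 to 2.18 FPKM under pressure and 11.7 FPKM in the control, and Cenph, an inner kinetochore subunit, at 2.83 to 3.40 FPKM and 16.1 FPKM. Of the 128 genes 90 were highest at -160 mmHg among the pressures, against 25.4% of all genes, with a median step of 0.16. So were 23 of the 29 kinetochore and centromere genes. Cenph was lowest at that pressure.

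Among spindle pole and centrosome genes 4 of 12 measured were lower at all 4 pressures, against 4.46% of all genes. Troap stood at 2.08 to 4.27 FPKM under pressure and 12.2 FPKM in the control. Tacc3, a spindle microtubule stabiliser, stood at 4.32 to 7.18 FPKM and 20.1 FPKM. Of 16 kinases and phosphatases of mitotic entry and exit 3 were lower at all 4, led by the CDK subunit genes Cks2 (23.8 to 29.1 FPKM and 101 FPKM) and Cks1b (30.3 to 38.0 FPKM and 96.9 FPKM). A single gene was lower at all 4 in each of 4 further lists, for the APC/C a share near the 4.46% of all genes. These were Ncapd2 among 8 condensin genes (5.72 to 7.81 FPKM under pressure, 20.02 FPKM in the control) and Kif22 among 7 kinesins (3.66 to 5.18 FPKM and 12.1 FPKM). The others were Trip13 among 4 checkpoint genes (1.13 to 2.12 FPKM and 5.53 FPKM) and Anapc11 among 17 genes of the APC/C (12.9 to 14.05 FPKM and 29.3 FPKM). Of cohesin, which also acts outside division, 0 of 14 measured subunit and regulator genes were lower at all 4 pressures, near the share of all genes, with a median log2 difference of 0.14 to 0.30. That median covers both directions, in genes named here after their values were seen. Espl1 (separase) stood at -1.05, -1.16, -0.97 and -1.27 on the log2 scale at -80, -120, -160 and -200 mmHg, and Sgo1 and Cdca5, which protect cohesion, passed the rule at 2 pressures each. Stag1, Stag2 and Nipbl stood 0.53 to 0.92 above the control. Of 17 APC/C genes 15 passed the rule at no pressure, again with no share of all genes computed. Of 7 other cytokinesis genes 0 were lower at all 4, near the 4.46% of all genes.

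Of 14 measured genes that regulate mitotic transcription 0 passed the rule at all 4 pressures in either direction, near the 4.46% lower and 6.49% higher over all genes. Foxm1, the activator of G2 genes, stood at 3.60 to 5.56 FPKM under pressure and 9.86 FPKM in the control, and was at least 2-fold lower at -120 and -200 mmHg. Mybl2 (B-Myb) stood at 0.909 to 1.55 FPKM and 3.22 FPKM, and Lin9, a core subunit of the complexes that bind the CHR and under the filter of 1 FPKM, at 0.590 to 0.755 FPKM and 1.30 FPKM. Foxm1 and Mybl2 were highest at -160 mmHg among the pressures as well (5.56 and 1.55 FPKM). Other genes of this list, chosen after their values were seen, stood above the control. Rbl2, a pocket protein of DREAM, was at 5.12 to 6.95 FPKM under pressure and 2.63 FPKM in the control, at least 2-fold higher at -80 and -160 mmHg. Rb1, Nfya and Nfyb had log2 differences of 0.39 to 0.87, below the rule. Their relatives in the list, also named after their values were seen, lay below the control. Nfyc stood at -0.46, -0.55, -0.16 and -0.34 at -80, -120, -160 and -200 mmHg, and Rbl1 at -0.22, -0.31, -0.01 and -0.27.

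Most genes of DNA replication were also highest at -160 mmHg among the pressures. Of 25 measured 6 were at least 2-fold lower and 0 higher at all 4 pressures, against 4.46% and 6.49% of all genes. At -160 mmHg 22 of the 25 were highest, against 25.4% of all genes, and the median step there was 0.27. Cdc45, a helicase factor, had 13.3 FPKM at 0 mmHg and 2.07, 1.82, 3.84 and 2.40 FPKM under pressure, and Rfc4, a clamp loader subunit, had 21.8 FPKM and then 3.25, 5.07, 5.48 and 5.35 FPKM. Pcna, the sliding clamp, stood at 32.6 to 41.8 FPKM under pressure and 71.5 FPKM in the control, and Mcm2, a helicase subunit, at 6.09 to 8.07 FPKM and 12.01 FPKM. Of 14 CDK inhibitors and G1 cyclins 1 was higher and 1 lower at all 4 pressures, near the 6.49% and 4.46% of all genes. Cdkn1b (p27), an inhibitor of CDK2 that accumulates in resting cells, stood at 36.1 to 39.6 FPKM under pressure and 17.5 FPKM in the control. Cdkn1c (p57) stood at 3.04 to 3.40 FPKM under pressure and 9.17 FPKM in the control. Cdkn1a (p21) stood at 3.16 to 4.76 FPKM under pressure and 2.25 FPKM in the control, below the rule at every pressure, and Ccnd1 (cyclin D1) at 17.2 to 20.97 FPKM and 26.2 FPKM.

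Of the 3 measured blood cell markers, Cd14 and Cd68 were at least 2-fold higher at all 4 pressures and Cd34 passed the rule at none. The summed level of all 13 was 101 to 111 FPKM under pressure and 65.8 FPKM in the control, with 5 to 7 of them at 0 in each library. At -160 mmHg it was 109 FPKM, inside the 101 to 111 FPKM of the other 3 pressures. The 9 erythroid markers, of which 0 were measured, summed to 0.335 to 0.700 FPKM under pressure and 0.295 FPKM in the control. The 8 endothelial markers summed to 3.45 to 4.99 FPKM and 1.15 FPKM, and the 1 measured, Plvap, was at least 2-fold higher at all 4 pressures. The part of other cell types in the difference from the control was not tested.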

How the data were processed

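The authors deposited 1 table of FPKM per gene for 5 libraries of wild-type mouse BMSCs, 1 per pressure. HISAT2, SAMtools and featureCounts 1.5.0-p3 are named per the submitters' processing notes, as is rn6, a rat genome. The gene IDs are those of mouse in Ensembl, and mouse exon lengths give whole reads, so annotation came from GENCODE release M21 (55141 of 55401 IDs had a symbol and 54349 matched with their version). Strand use in counting was not given in the sources used here. Genes that overlap or have near-identical copies may share reads.

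The product of FPKM and exon length came out as whole reads (tolerance 0.001) in all 54349 genes, at library totals of 16600622 to 18398911. These reads served for read numbers and Clopper-Pearson intervals (95%) only. The intervals cover counting error, as the reads carry no molecular identifiers and several can come from 1 molecule, and a count of 0 allows up to 3 reads.

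Values were compared in log2(FPKM + 1) over 12113 genes that averaged 1 FPKM or more, by size: 2-fold against the control, and 1.5-fold for -160 mmHg against the mean of the other 3 pressures. No test was possible with 1 library per condition. The 39 genes were taken by name. The text names all of them, from each other list up to 2 decreases and 1 increase past the size rule at all 4 pressures, and 8 further genes by name. Single marker genes, and other genes marked so in the text, were named after their values were seen. The 39 genes and all lists were chosen with earlier results of these data known. Alternatives were pseudocounts of 0.1 and 5, other filters on low values (none, or 5 FPKM on average), 4 scalings, lower fold thresholds and, for promoters, the gene strand alone, a shorter window and TTTAAA as a further core. Single pressure libraries were left out as well, a choice made after the data were seen. The functions were checked on simulated reads (Python 3.11.15, with numpy 2.4.6 for arrays, pandas 2.3.3 for tables, scipy 1.17.1 for intervals, and matplotlib 3.10.9 for plots).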

Additional observations from a re-analysis of the deposited data

How the results depend on the processing

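Of 125 alternative values 108 stayed within 1.5 times the reported count, or, for medians, within the counting error of the gene at the median. The 108 include 3 promoter shares, given below. They also include values that could not change: all 39 genes pass the filter, so leaving it out returns their main values. Of the medians 0 reversed in sign. Counts and shares have no sign, so for them a reversal could not be seen. All 39 genes were highest at -160 mmHg among the pressures under each of the 4 scalings, the only alternatives that could change this rank. A pseudocount or a filter cannot change which library is highest for a gene. With a mean of at least 5 FPKM 26 genes were left to compare. All 39 were lower than the control at all 4 pressures under every scaling except the upper quartile, under which Ect2 alone was higher at -160 mmHg. A pseudocount of 5 left 9 of 39 genes lower at -160 mmHg and 9 at all 4 pressures, with medians of -1.04, -1.06, -0.79 and -1.04 at -80, -120, -160 and -200 mmHg, 0 genes at 1.5-fold for -160 mmHg against the other pressures (median 0.23) and 6 other mitotic genes lower at all 4. A pseudocount of 0.1 gave medians of -1.65 at -80 mmHg and -1.87 at -120 mmHg and 12 genes at 1.5-fold for -160 mmHg. With a mean of at least 5 FPKM 21 of the 26 genes left were lower at -120 mmHg, beside 32 of 39 in the main setting. In that setting 10 of 70 other mitotic genes were lower at all 4. The trimmed mean of log ratios moved the median at -80 mmHg to -1.58. Under the lower fold thresholds 30 of the 39 genes passed for -160 mmHg, and at 1.5-fold 50 of 128 other mitotic genes were lower at all 4 pressures. The share of all genes past a size rule was not computed under any alternative setting, so these counts have no background to be read against. Leaving out the library at -80, -120 or -200 mmHg was added once the data had been seen. It gave 4 genes at 1.5-fold each time, and medians of 0.39 to 0.40 for the step at -160 mmHg. The 39 genes stay highest at -160 mmHg by construction when another library is left out. Without the -160 mmHg library, also added, 30 of the 39 genes and 31 of 128 other mitotic genes were lower at all 3 pressures, again with no share of all genes. Genes such as Cdc25c with 89 reads have wide counting intervals, and culture-to-culture variation could not be measured. The share of promoters with TTTGAA was 59.4% on the gene strand alone, 71.9% from 100 bases before the start and 84.4% with TTTAAA added. No paired analysis was possible because each condition has 1 library.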

Other observations

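Protein-coding genes that were at least 1.5-fold higher at -160 mmHg than the mean of the other 3 pressures were few, 17 of 10711 measured (0.159%). The 39 mitotic genes supplied 4 of them, other mitotic genes 4 (Pbk, Melk, Knl1 and Kif18b) and DNA replication genes 3 (Rrm2, Cdc45 and Mcm5). Rrm2, a subunit of ribonucleotide reductase, had 18.9 FPKM at 0 mmHg and 8.31, 7.33, 15.7 and 9.13 FPKM at -80, -120, -160 and -200 mmHg, and Pbk, a mitotic kinase, had 18.6 FPKM and then 5.20, 5.28, 10.1 and 6.71 FPKM. Both were thus highest in the control and second at -160 mmHg.

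The remaining 6 were in no list here and are named after their values were seen: Hist1h3i, Ankle1, Rnase10, Ndufa4l2, Tfrc and Crabp1. Tfrc, the transferrin receptor, had 5.31 FPKM at 0 mmHg and 6.84, 6.20, 10.9 and 6.50 FPKM at the 4 pressures. Ndufa4l2, a mitochondrial protein gene known as a target of hypoxia signalling, had 2.13 FPKM at 0 mmHg and 18.4, 25.4, 38.0 and 27.3 FPKM. Unlike the mitotic genes, Tfrc and Ndufa4l2 were lowest in the control, as were Hist1h3i and Rnase10. Ankle1 (5.16 FPKM in the control, 2.69 FPKM at -160 mmHg) and Crabp1 (26.3 and 17.4 FPKM) were highest in the control and second at -160 mmHg. Of all 113 genes past this rule 65 had an exon length under 200 nt and were in no list.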
